A study of Mus musculus with 6 samples.

Results

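The inhibin, activin and follistatin system was represented by 10 genes of the 19937 tested on whole-transcript arrays of MASE2 ovarian tumours. The genes were taken by symbol, and each had 1 probe set whose platform annotation names exactly 1 gene. They are the ligand subunits Inha, Inhba and Inhbb, the activin-binding proteins Fst and Fstl3, the type II receptors Acvr2a and Acvr2b, the type I receptors Acvr1b and Acvr1, and the inhibin coreceptor Tgfbr3. All 10 were measured on all 6 arrays.

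The 3 E2 samples were tumours from SCID mice given an estradiol (E2) pellet, and the 3 placebo samples were tumours from SCID mice given a placebo pellet. SCID hosts lack functional T and B lymphocytes. Both groups carried the same injected cells, MASE2, a line grown from ascites of the transgenic model tgCAG-LS-TAg, in which Cre delivered by adenovirus (AdCre) into the ovarian bursa switches on SV40 large and small T antigens in ovarian surface epithelium. The labels state that the transgenic model was itself treated with E2, so the cells of the placebo tumours also came from an E2-treated animal. Pellets were implanted with the cells, and tumours were taken at a loss-of-wellness endpoint. The labels give no dose, age, sex, injection site or day of collection. Values are log2 intensities made by the authors with RMA, and the number of arrays limits their precision.

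Activins are dimers of inhibin beta subunits, whereas inhibins pair a beta subunit with the inhibin alpha subunit. Activin binds a type II receptor, which recruits and activates a type I receptor, and the signal passes through SMAD2 and SMAD3. Inhibin occupies the type II receptor without starting that signal, helped by its coreceptor, and follistatins wrap activin so that it cannot bind. In the ovary, granulosa cells are the main source of inhibin, which lowers pituitary secretion of follicle-stimulating hormone.

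All 3 ligand subunit genes were higher in E2 tumours, whereas none of the 4 activin receptor genes, the coreceptor or the binding proteins passed the test on all 6 arrays. Of the 10 genes, 3 rose at a limma adjusted p under 0.05, against 1.06% of all genes. In the same test 0 fell, against 0.326% of all genes, and at an unadjusted p under 0.05, 4 of the 10 were higher (10.4% of all genes) and 2, Fst and Acvr2a, lower (6.16% of all genes). Every E2 tumour lay above every placebo tumour for 4 of the 10 genes (14.9% of all genes) and below every placebo tumour for 2 (11.4% of all genes). The median change of the 10 genes was 0.19 on the log2 scale, beside -0.0087 over all genes. In bulk tumour RNA, fewer cells of a type and less RNA per cell cannot be told apart.

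**Figure D1:**
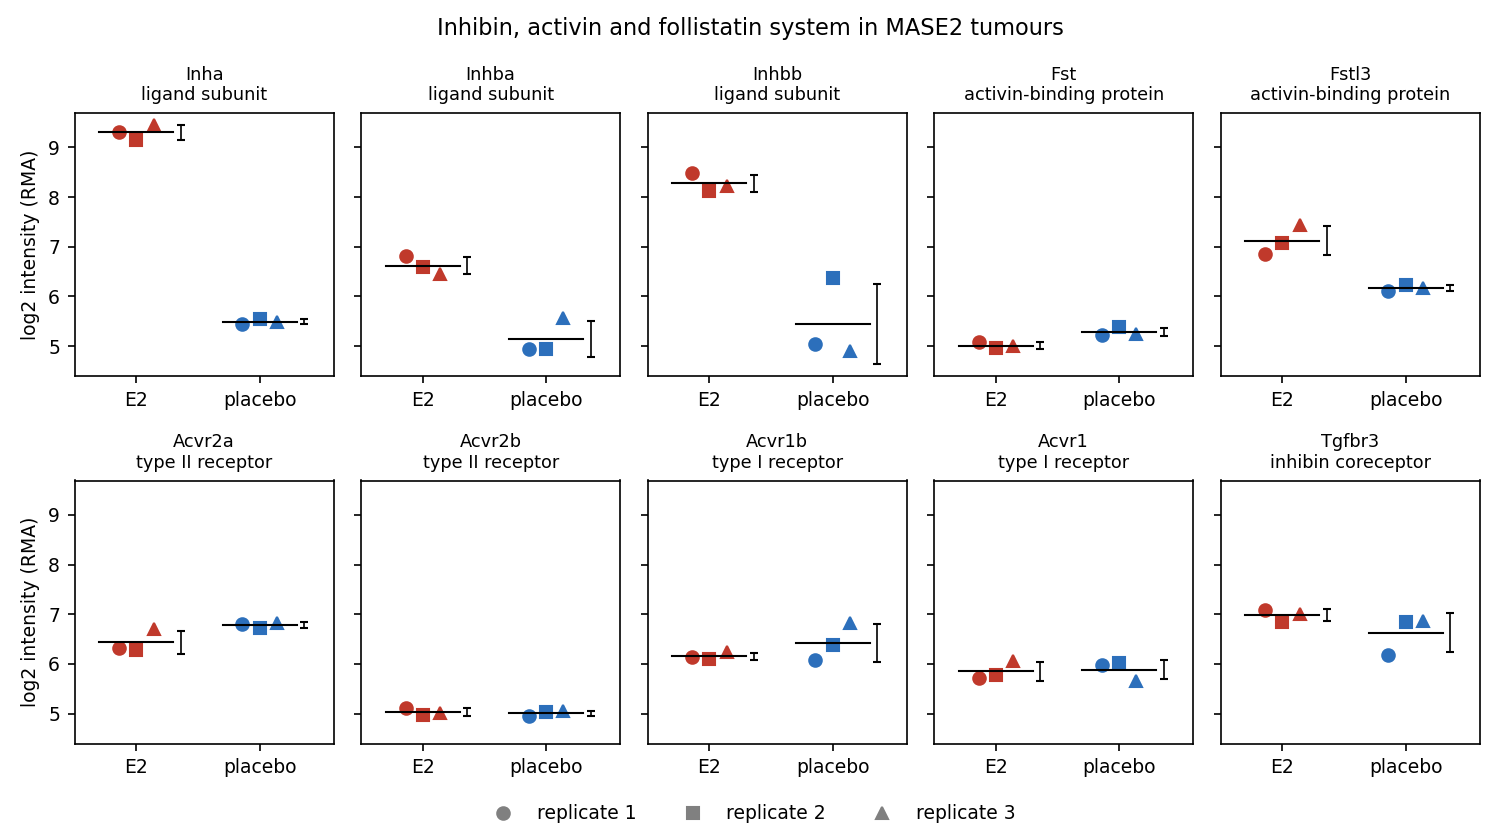
Log2 intensity of each of the 10 genes in each tumour, with E2 tumours (red) left of placebo tumours (blue). Horizontal bars are group means, the vertical bars beside them are SDs (n = 3 each), and symbols mark the replicate number. The groups are far apart for Inha, Inhba and Inhbb, apart by less for Fstl3, and close or overlapping for the receptors.

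The array of placebo replicate 3 stood apart. Its Pearson r with the other arrays over all genes was 0.857 to 0.865, against 0.960 to 0.994 among the others. All 8 measured intestinal epithelium markers (Vil1, Cdx1, Cdx2, Lgals4, Fabp2, Zg16, Reg3b and Krt20) were highest on that array, where their mean was 9.98, against 4.46 and 4.52 in placebo replicates 1 and 2 and 4.42 to 4.69 in the E2 tumours. Values without this array are therefore given beside the results it touches, and its part in each result was not tested. Of the 8 surface epithelium and mesothelium markers, chosen for the labelled origin of the cells, Krt8, Krt18, Krt19 and Wt1 measured 6.37 or more on every array. The mesothelial markers Msln, Upk3b and Lrrn4 measured 4.70 to 6.005 in E2 tumours and 5.96 to 9.99 in placebo tumours, with every E2 tumour below every placebo tumour for each. Lrrn4 had the largest difference (log2 change -3.14, limma adjusted p = 0.0959). Krt7 was lower in E2 tumours (log2 change -2.36, limma adjusted p = 0.00445). Without placebo replicate 3, 5 of the 8 fell, against 5.21% of all genes. Over all 6 arrays the mean of the 8 was 6.58 to 6.82 in E2 tumours and 8.02 to 8.46 in placebo tumours. Macrophage markers (6 genes) had means of 6.31 to 6.64 in E2 tumours and 6.75 to 7.76 in placebo tumours, and 1 of them fell. The 7 measured granulosa and gonadal markers had means of 6.13 to 6.38 in E2 tumours and 4.87 to 5.04 in placebo tumours. Of these 7, Nr5a1, Cyp11a1 and Gata4 rose, 0 fell, and Star did not pass (log2 change 0.97, limma adjusted p = 0.0595). The granulosa-defining Fshr was below the 25th percentile of genes on every array, and Fshr, Foxl2 and Amh differed by -0.011, -0.014 and -0.18. Foxl2 was below the median gene on 5 arrays and Amh on all 6, so how far these genes stand above background is not known.

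For the genes that rose, and for Fstl3, the start-site windows listed by RefSeq for build GRCm38.p6 are shown, since these are the genes with the largest differences. Each holds 250 bases before and 50 after a listed start, 5′ to 3′ on the gene's strand, and windows were listed for 8 of the 10 genes. Capitals mark the nuclear receptor core motif GGTCA (or its complement) and the TATA box letters TATAAA (or their complement). The Inha window, chr1:75507359-75507658 (+), surrounds a start 532 bases inside the RefSeq gene, so it is not the sequence upstream of the whole gene. The Inhba window, chr13:16011601-16011900 (+), surrounds a start 7595 bases inside the RefSeq gene span. The Inhbb window is chr1:119422199-119422498 (-) and the Fstl3 window chr10:79777024-79777323 (+), and both surround the 5′ end of the gene.
Inha: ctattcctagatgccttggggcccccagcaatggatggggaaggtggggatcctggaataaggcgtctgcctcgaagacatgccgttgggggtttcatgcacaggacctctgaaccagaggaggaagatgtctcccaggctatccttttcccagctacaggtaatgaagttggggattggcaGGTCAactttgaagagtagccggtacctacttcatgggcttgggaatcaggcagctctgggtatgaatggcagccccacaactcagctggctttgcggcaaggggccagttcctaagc
Inhba: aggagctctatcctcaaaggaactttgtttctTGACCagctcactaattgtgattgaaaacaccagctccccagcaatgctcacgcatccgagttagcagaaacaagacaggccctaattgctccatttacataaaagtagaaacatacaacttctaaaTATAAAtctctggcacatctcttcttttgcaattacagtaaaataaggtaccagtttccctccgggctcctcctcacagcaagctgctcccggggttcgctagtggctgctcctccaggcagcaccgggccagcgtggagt
Inhbb: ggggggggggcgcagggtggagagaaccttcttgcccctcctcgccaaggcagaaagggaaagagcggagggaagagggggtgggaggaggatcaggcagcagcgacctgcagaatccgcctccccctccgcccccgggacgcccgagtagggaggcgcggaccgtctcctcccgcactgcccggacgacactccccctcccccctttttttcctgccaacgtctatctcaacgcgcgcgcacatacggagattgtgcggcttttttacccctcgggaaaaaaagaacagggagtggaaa
Fstl3: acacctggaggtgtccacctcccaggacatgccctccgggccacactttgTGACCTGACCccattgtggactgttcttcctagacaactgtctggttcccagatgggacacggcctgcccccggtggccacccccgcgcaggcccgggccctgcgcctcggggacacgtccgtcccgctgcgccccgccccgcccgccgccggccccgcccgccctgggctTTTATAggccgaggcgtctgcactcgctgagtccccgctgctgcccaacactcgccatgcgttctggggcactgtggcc

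The windows of the 3 genes that rose share no motif of those searched on both strands. The core motif GGTCA, which estrogen receptors and NR5A factors both recognise within longer sites, occurs in 3 of the 8 windows, those of Inha, Inhba and Fstl3, and in 40.5% of all 32851 windows of that length. In the Fstl3 window its complement occurs at 2 adjoining positions, with first bases at -200 and -195 relative to the start. The TATA box letters occur in the windows of Inhba (first base at -91) and Fstl3 (complement, at -29), and in 13.6% of all windows. The full estrogen response element, which is 2 copies of the core motif facing each other across 3 bases, occurs in 0 of the 8 windows and in 0.07% of all windows. The longer cAMP response element TGACGTCA (1.79% of all windows) was in 0 of the 8. The same count of 0 was found for the NR5A motif AAGGTCA (4.72% of all windows), which holds the core motif. It was also found for the cAMP response element letters TGACG (20.8%), the AP-1 motif TGACTCA (5.2%) and the GATA motif AGATAA (11.2%). The SMAD motif CAGAC occurs in 4 of the 8 windows, those of Inha, Fstl3, Acvr2a and Acvr2b, and in 49.6% of all. These are letter matches in short windows and are not evidence of binding or its absence.

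Inha, which encodes the alpha subunit shared by all inhibins, differed most among the 10 genes. It measured 9.31, 9.15 and 9.45 log2 units in the E2 tumours, against 5.44, 5.55 and 5.49 in the placebo tumours. The 3 values of each group lay close together and the groups were widely separated. The means were 9.30 ± 0.15 with E2 and 5.49 ± 0.05 with placebo (SD, n = 3 each), a log2 change of 3.81 (95% confidence interval 3.56 to 4.06) and a 14.04-fold difference. The placebo values lay only a little above the median genes of their arrays (5.32, 5.41 and 5.31), so the size of the change is less certain. The limma adjusted p was 0.000223, the rank by p was 2 among all genes and the rank by rise 5. Inha passed the test whichever array was left out, with log2 changes of 3.74 to 3.89. The gonadal marker level given above moved in the same direction as Inha, and its part in the rise was not tested. Placebo replicate 3, the array with intestinal markers, lay between the other placebo tumours for this gene.

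Inhbb encodes the beta B subunit, which forms activin B alone and inhibin B with the alpha subunit. It measured 8.48, 8.13 and 8.22 in the E2 tumours, against 5.04, 6.36 and 4.91 in the placebo tumours. The E2 tumours were all higher, and among placebo tumours replicate 2 stood above the other two. The means were 8.28 ± 0.18 with E2 and 5.44 ± 0.80 with placebo (SD, n = 3 each), a log2 change of 2.84 (95% confidence interval 1.88 to 3.80, limma adjusted p = 0.0358). This is a 7.15-fold difference, less certain in size because placebo replicates 1 and 3 lay below the median gene of their arrays. Leaving out placebo replicate 2 gave a log2 change of 3.30 (adjusted p = 0.00468) and leaving out placebo replicate 3 gave 2.57 (adjusted p = 0.00271).

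Inhba encodes the beta A subunit, the building block of activin A and, with the alpha subunit, inhibin A. It measured 6.81, 6.59 and 6.46 in the E2 tumours, against 4.94, 4.94 and 5.56 in the placebo tumours. The groups did not overlap, and the highest placebo value was that of replicate 3. The means were 6.62 ± 0.18 with E2 and 5.15 ± 0.36 with placebo (SD, n = 3 each), a log2 change of 1.47 (95% confidence interval 0.98 to 1.96) and a 2.77-fold difference. Its limma adjusted p was 0.0337, and 0.000212 with a log2 change of 1.68 when placebo replicate 3 was left out. Placebo replicates 1 and 2 lay below the median gene of their arrays, so the size of the change is less certain.

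The calls of the beta subunits depended on which arrays were in the fit. Inhbb missed the threshold without placebo replicate 1 (adjusted p = 0.119) and without E2 replicate 1, 2 or 3 (0.177, 0.184 and 0.182), although its log2 change stayed between 2.64 and 2.91 in these fits. Inhba missed it without placebo replicate 1 or 2 (0.116 and 0.082) and without E2 replicate 1, 2 or 3 (0.165, 0.186 and 0.153), with log2 changes of 1.37 to 1.55. Over all genes the number called higher was 211 on 6 arrays, 31 to 37 without an E2 array, and 62, 170 and 1276 without placebo replicate 1, 2 and 3.

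**Figure D2:**
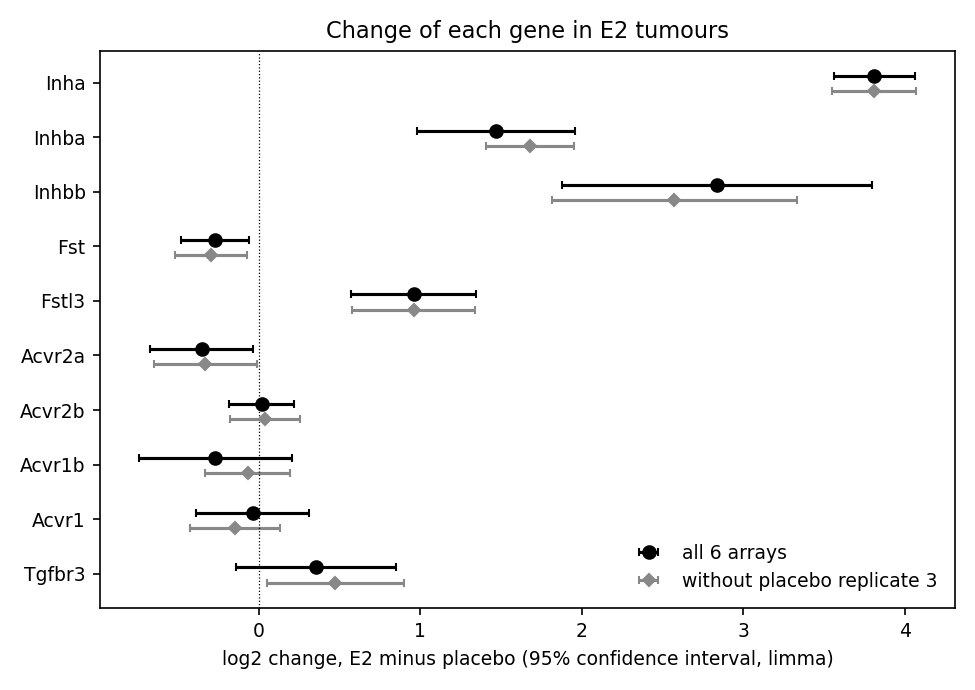
Log2 change (E2 minus placebo) of each of the 10 genes with its 95% confidence interval from limma, on all 6 arrays (black circles) and without placebo replicate 3 (grey diamonds). The intervals of Inha, Inhbb, Inhba and Fstl3 lie above 0 in both fits, and those of Acvr2b, Acvr1b and Acvr1 cross 0 in both.

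The binding proteins differed from each other. Fstl3, a follistatin relative that also traps activin, measured 6.86, 7.07 and 7.45 in the E2 tumours, against 6.10, 6.23 and 6.17 in the placebo tumours. Every E2 tumour was above every placebo tumour, and E2 replicate 3 was the highest. The means were 7.13 ± 0.30 with E2 and 6.17 ± 0.06 with placebo (SD, n = 3 each), a log2 change of 0.96 (95% confidence interval 0.57 to 1.35). On all 6 arrays it narrowly missed the threshold (limma adjusted p = 0.0564). Without placebo replicate 3 it passed at the same size (log2 change 0.96, adjusted p = 0.00916), so that 4 of the 10 genes rose, against 6.4% of all genes, and 0 fell, against 5.21%.

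Fst, the follistatin gene, lay slightly lower in the E2 tumours. It measured 5.08, 4.953 and 4.996 there, against 5.23, 5.38 and 5.24 in the placebo tumours. The groups did not overlap, but all 6 values lay below the median gene of their arrays, so how far they stand above background is not known. The log2 change was -0.27 (95% confidence interval -0.48 to -0.060) and did not pass (limma adjusted p = 0.208). It did not pass without placebo replicate 3 either (log2 change -0.29, adjusted p = 0.0999).

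Neither type II receptor, which makes the first contact with activin or inhibin, passed the test. Acvr2a measured 6.31, 6.29 and 6.70 in the E2 tumours, against 6.80, 6.72 and 6.83 in the placebo tumours. All E2 values were lower, with E2 replicate 3 only just below the lowest placebo tumour. The log2 change was -0.35 (95% confidence interval -0.67 to -0.032, limma adjusted p = 0.265). Acvr2b measured 5.11, 4.97 and 5.01 in the E2 tumours, against 4.95, 5.02 and 5.05 in the placebo tumours, and these overlapped. Its log2 change was 0.021 (95% confidence interval -0.18 to 0.22, adjusted p = 0.922), and all 6 values lay below the median gene of their arrays.

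The type I receptors gave no call in either direction. Acvr1b, the kinase ALK4 that carries activin signals, measured 6.15, 6.09 and 6.23 in the E2 tumours, against 6.08, 6.37 and 6.82 in the placebo tumours. The groups overlapped and placebo replicate 3 held the highest value. The log2 change was -0.27 (95% confidence interval -0.74 to 0.20, limma adjusted p = 0.531), and -0.068 without that array (adjusted p = 0.788). Acvr1, the kinase ALK2 that mainly carries bone morphogenetic protein signals, measured 5.71, 5.78 and 6.05 in the E2 tumours, against 5.98, 6.01 and 5.66 in the placebo tumours. These groups overlapped too, with a log2 change of -0.036 (95% confidence interval -0.39 to 0.31, adjusted p = 0.922).

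Tgfbr3, which encodes betaglycan, the coreceptor that raises the affinity of inhibin for type II receptors, measured 7.10, 6.85 and 7.01 in the E2 tumours, against 6.18, 6.84 and 6.87 in the placebo tumours. Placebo replicate 1 was low and the other 2 placebo tumours lay at the level of the E2 tumours. The log2 change was 0.36 (95% confidence interval -0.14 to 0.85) and did not pass (limma adjusted p = 0.445). Without placebo replicate 1 it was 0.13, and without placebo replicate 3 it was 0.47 (adjusted p = 0.154).

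Because subunits pair and binding proteins trap the dimers, the change of one gene relative to another was compared within each tumour as the difference of their log2 values. Probe sets are not comparable in level, so a single difference has no meaning by itself and the comparison is between the groups. Inha minus Inhba was 2.51, 2.56 and 2.99 in the E2 tumours, against 0.50, 0.61 and -0.073 in the placebo tumours. The change of the alpha subunit gene exceeded that of the beta A subunit gene by 2.34 log2 units, with no overlap of the groups. Inha minus Inhbb was 0.84, 1.02 and 1.23 in the E2 tumours, against 0.40, -0.81 and 0.58 in the placebo tumours, a change of 0.97. Inhba minus Inhbb was -1.67, -1.54 and -1.76 in the E2 tumours, against -0.10, -1.42 and 0.65 in the placebo tumours, a change of -1.37. The groups did not overlap in these comparisons either, and in both placebo replicate 2, which had the highest placebo value of Inhbb, was the lowest of the placebo tumours. Without that array the change of Inha minus Inhbb was 0.54, and without placebo replicate 3 that of Inhba minus Inhbb was -0.89. Inhba and Inhbb each lay below the median gene in 2 placebo tumours, so differences that include either gene are less certain in size.

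The beta A subunit gene was also set against the genes of the binding proteins. Inhba minus Fst was 1.73, 1.64 and 1.46 in the E2 tumours, against -0.29, -0.44 and 0.32 in the placebo tumours, a change of 1.74 with no overlap. Relative to Fstl3, which was also higher, the groups overlapped, with -0.056, -0.48 and -0.99 in the E2 tumours and -1.16, -1.29 and -0.61 in the placebo tumours, a change of 0.51 (0.29 without E2 replicate 1). Exact two-sided permutation tests over the 6 tumours gave p = 0.10 for the first 4 of these 5 comparisons, the smallest value that 3 against 3 allows, and p = 0.20 for Inhba minus Fstl3. None can therefore pass a threshold of 0.05 in this design.

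**Figure D3:**
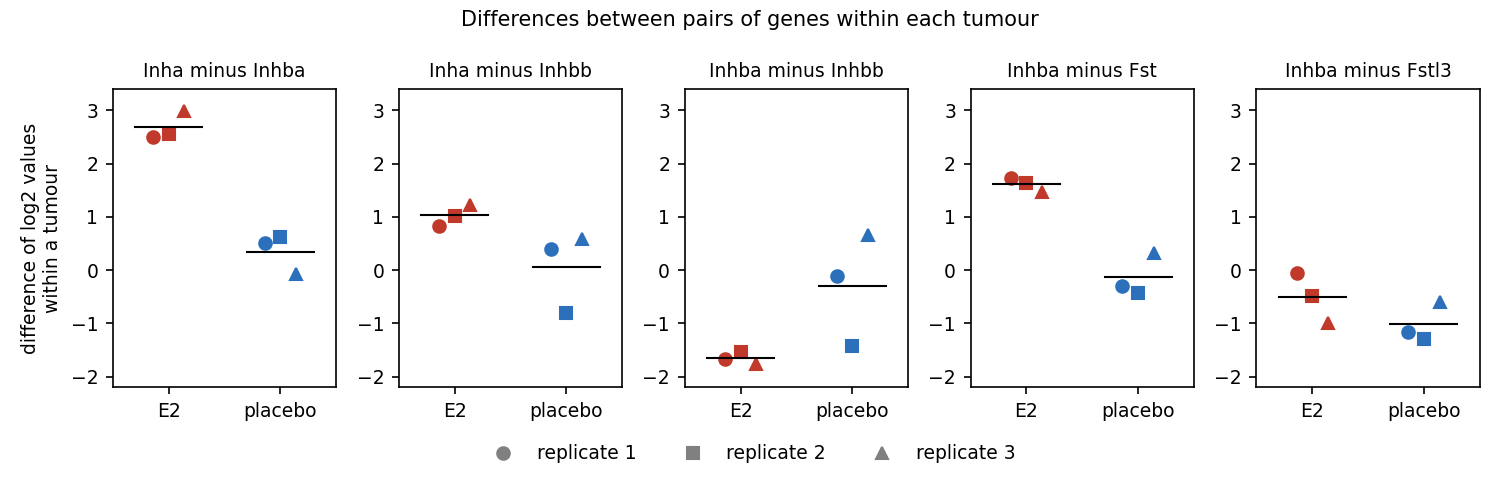
Difference between the log2 values of a pair of genes within each tumour, with E2 tumours (red) left of placebo tumours (blue), horizontal bars for the group means and symbols for the replicate number. The E2 tumours lie above the placebo tumours for Inha minus Inhba, Inha minus Inhbb and Inhba minus Fst, below them for Inhba minus Inhbb, and overlap them for Inhba minus Fstl3.

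Around these 10 genes, 82 further genes of the pathway were listed in 7 groups and 74 were measured. Of the 74, 3 rose (4.05%) and 0 fell by the same limma test, beside 1.06% and 0.326% of all genes. At an unadjusted p under 0.05, 9 were higher and 5 lower (12.2% and 6.76% of the 74, beside 10.4% and 6.16% of all genes). Every E2 tumour was above every placebo tumour for 14.9% of the 74, as for all genes, and below for 16.2% (11.4% of all genes). Their median log2 change was 0.0061. Without placebo replicate 3, 8 of the 74 rose and 7 fell, where 6.4% of all genes rose and 5.21% fell.

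The 3 that rose all belong to the 14 measured regulators of inhibin subunit transcription (median log2 change 0.083). Nr5a1 encodes a nuclear receptor that binds and activates the Inha promoter in granulosa cells. It measured 7.95, 7.27 and 7.64 in the E2 tumours, against 5.11, 5.02 and 5.40 in the placebo tumours (log2 change 2.45, adjusted p = 0.00731). Gata4, a zinc finger factor that activates the same promoter, measured 8.49, 8.33 and 8.66 in the E2 tumours, against 6.61, 7.12 and 6.91 in the placebo tumours (log2 change 1.61, adjusted p = 0.0136). Cebpb, a leucine zipper factor of the ovulatory response, was higher by a log2 change of 0.56 (adjusted p = 0.0488). For all 3 genes, every E2 tumour was above every placebo tumour, and Nr5a1 and Gata4 are also among the gonadal markers. Gata6, the relative of Gata4, differed by 0.0054 (adjusted p = 0.993), and Creb1 and Crem, which encode cAMP-responsive factors, by 0.13 and 0.041. Nr5a2, the relative of Nr5a1, measured 5.89, 5.52 and 5.15 in the E2 tumours, against 4.82, 4.74 and 6.09 in the placebo tumours. Its highest value was that of placebo replicate 3. It did not pass (log2 change 0.30, limma adjusted p = 0.728), but rose by 0.74 without that array (0.0458). In that fit 4 of the 14 regulators rose, against 6.4% of all genes. Esr1, which encodes estrogen receptor alpha, measured 9.36, 9.29 and 9.17 in the E2 tumours, against 8.92, 9.06 and 6.35 in the placebo tumours, the last being replicate 3. It did not pass (log2 change 1.17, adjusted p = 0.475), and without that array its log2 change was 0.29 (adjusted p = 0.125).

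Neither SMAD proteins nor their partners passed the test on all 6 arrays (0 of 13, median log2 change 0.032). Smad3, the mediator that activin shares with TGF-beta, came closest. It measured 7.15, 7.15 and 7.25 in the E2 tumours, against 6.58, 6.72 and 6.49 in the placebo tumours, without overlap (log2 change 0.58, adjusted p = 0.0525, and 0.53 with adjusted p = 0.0117 without placebo replicate 3). Smad2, its partner, differed by 0.18 (adjusted p = 0.755). Tgif2, a SMAD corepressor, differed by 0.32 and Smad9, of the bone morphogenetic protein branch, by -0.31 (adjusted p = 0.187 and 0.302).

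Among genes that SMAD2 and SMAD3 are known to induce, 9 were measured. Of these, 0 passed, 4 had positive changes and the median was -0.12. Tgfbi, a secreted matrix protein, differed by -0.65 (adjusted p = 0.215), Snai1, a repressor of epithelial genes, by -0.29 (0.287) and Thbs1, thrombospondin, by 0.73 (0.302). Without placebo replicate 3, Thbs1 rose by 1.06 (adjusted p = 0.00285) and Ccn2, a matricellular protein, fell by 0.57 (adjusted p = 0.0231).

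The remaining 4 groups held 0 calls each on all 6 arrays. Other receptors of the family (8 genes) had a median change of -0.046, with Bmpr1b (dim, under the 25th percentile on 5 arrays) at -0.44 (adjusted p = 0.182), Eng, which encodes endoglin, at -0.44 (0.338) and Acvrl1, which encodes ALK1, at 0.25 (0.377). Other ligands of the SMAD2 and SMAD3 branch with the LEFTY antagonists (12 measured genes) had a median of -0.11, with Tgfb1 at 0.70 (0.243), Lefty1 at -0.24 (0.347) and Nodal at -0.16 (0.354). Lefty1 was also under the 25th percentile on 5 arrays, and Nodal was below the median gene on all 6. Coreceptors, traps and receptor regulators (14 measured genes) had a median of 0.015, with Nog, a bone morphogenetic protein trap, at 0.55 (0.155), Pmepa1, which restrains SMAD signalling, at 0.39 (0.201) and Fkbp1a, a silencer of type I receptors, at 0.26 (0.345). The 4 proprotein convertases, which cleave the precursors of such ligands, all had negative changes with a median of -0.51, and Pcsk6, Furin and Pcsk7 differed by -0.69, -0.33 and -0.20 (0.307, 0.325 and 0.395). Without placebo replicate 3, Pcsk6 fell by 0.94 (adjusted p = 0.0285). Among the receptors, Bmpr1a (log2 change -0.54, adjusted p = 0.0385) and Bmpr1b (-0.50, 0.0439) fell in that fit. Pcsk5, the fourth convertase, was at 7.64 in placebo replicate 3, against 5.33 and 5.55 in the other placebo tumours. Without that array the median of the convertases was -0.18.

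**Figure D4:**
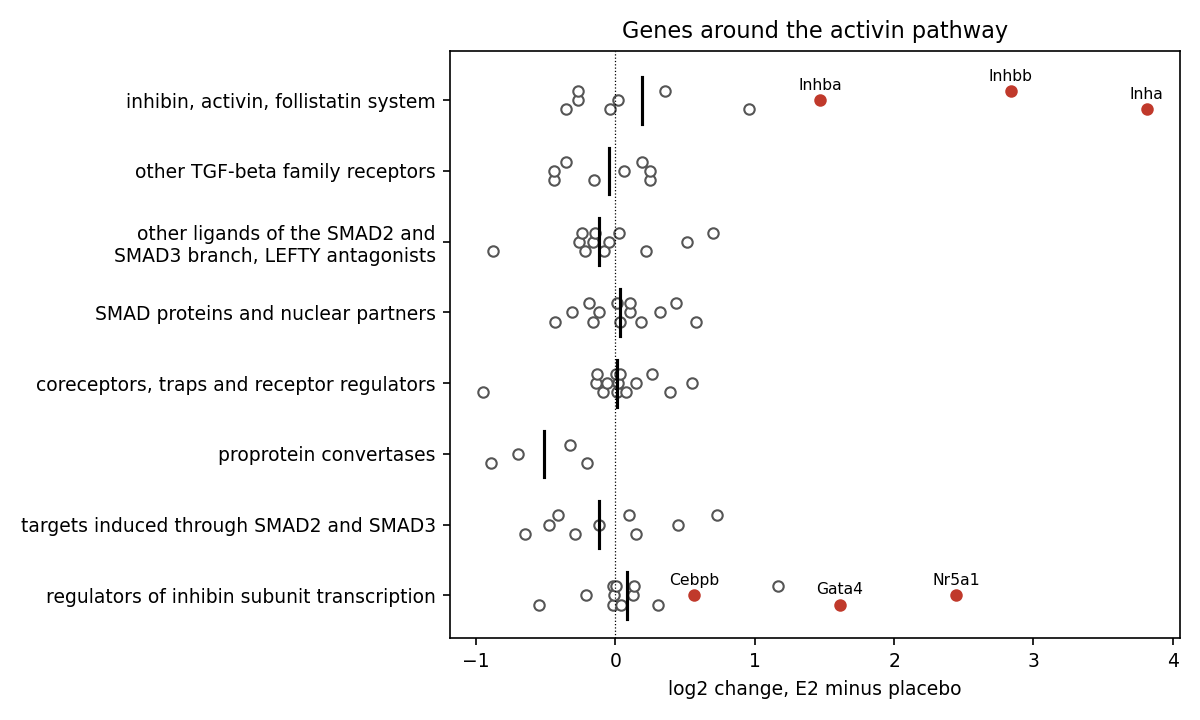
Log2 change (E2 minus placebo) of the 10 genes (top row) and of the 74 measured genes in 7 groups around them. Each circle is a gene, filled red where it rose at a limma adjusted p under 0.05, and black vertical bars are medians. The 6 filled circles are Inha, Inhbb and Inhba in the top row and Nr5a1, Gata4 and Cebpb among the regulators of inhibin subunit transcription.

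The genes with the pattern closest to that of Inha were found by the root mean square difference of values centred on each gene's mean over the 6 arrays. The 5 closest were Kctd14 (0.196 log2 units), Qrfprl (0.249), Greb1 (0.252), Cyp11a1 (0.276) and Myl7 (0.308). Kctd14 measured 8.09, 8.52 and 8.48 in the E2 tumours, against 4.41, 4.42 and 4.67 in the placebo tumours. The measure favours genes whose change is as large as that of Inha, and all 5 had log2 changes of 3.33 to 4.26. Cyp11a1, which encodes the enzyme that starts steroid synthesis, and Qrfprl were each under the 25th percentile of genes in 2 placebo tumours. Kctd14 and Greb1 lay below the median gene in all 3 placebo tumours and Myl7 in 2. The changes of all 5 genes are therefore less certain in size.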

How the data were processed

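RNA from 6 MASE2 tumours, 3 from E2 and 3 from placebo mice, was hybridised to whole-transcript mouse arrays, 1 per tumour, per the labels' protocols. The deposited log2 intensities were summarised by RMA, as the submitters' processing notes name it. No source used here gives its software or version. RMA tends to compress changes near background, and array medians were 4.84 to 4.97.

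Of 34760 probe sets, the platform annotation gave 1 symbol for 21640, more than 1 for 1321 and no entry for 11799. The probe set with the highest mean stood for each of 19937 genes. RefSeq names (GRCm38.p6) changed 0 symbols. The groups were tested by limma 3.58.1 (R 4.3.3; lmFit, eBayes) over all genes, two-sided, with Benjamini-Hochberg adjustment and a threshold of 0.05. The step was tested on simulated data. Tumours are called biological replicates in the design text, and the p-values rest on their spread.

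The 10 genes, the 7 pathway lists and the marker lists were chosen with earlier results of these data known. Named were all 10 genes, called list genes (otherwise the 3 of smallest p) and the 5 genes closest to Inha. Other named genes were chosen after their values were seen. Of the marker lists not described with the results, 1 of 5 endothelial genes rose (Kdr). The other 4 were lower in every E2 tumour without a call, and 3 of them were called lower without placebo replicate 3. Of 3 adipocyte genes, 1 fell (Adipoq). Of 5 fibroblast, 4 pancreatic acinar, 3 liver and 4 T and B cell genes, 0 were called. Without placebo replicate 3, 1 fibroblast gene rose (Pdgfra) and 3 fell (Col1a1, Col3a1 and Lum). In that fit 2 of the 3 adipocyte genes fell, and of all genes 6.4% rose and 5.21% fell. Alternatives left out each array, added the replicate number as a block, filtered dim genes, averaged probe sets, renormalised, or changed the variance model, array weights or threshold. The replicate numbers were not shown to pair the tumours.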

Additional observations from a re-analysis of the deposited data

How the results depend on the processing

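The rise of Inha kept its direction and its call in all 14 alternative fits (log2 change 3.74 to 3.89, highest limma adjusted p 0.0397). Inhbb and Inhba kept their direction in all 14 and lost the call in 5 and 7, and Fstl3 kept its direction and gained the call in 5. Averaged probe sets, the replicate block, the filters and the variance model cannot alter the log2 changes of these genes. In those fits only the adjusted p could move. The number of the 10 genes called higher was 3 on all arrays and 1 to 4 when each array was left out. It was 1 with the replicate block, where Inhba (adjusted p = 0.196) and Inhbb (0.172) lost the call and 10 genes in all were called higher. Same-numbered tumours did not deviate together (r = -0.029, -0.18 and -0.13 for replicates 1, 2 and 3), so the numbers were not taken as pairs. Repeated quantile normalization took Inhba to an adjusted p of 0.0532. The number called lower was 0 in each of these fits. Of the 74 pathway genes, 3 were called higher, with 0 to 8 when each array was left out, 0 with the replicate block and 5 with array weights. The number called lower was 0, with 0 to 7 when each array was left out and 4 with array weights. The extremes of 8 and 7 came without placebo replicate 3. The cause of these differences was not tested. The changes near 0 of Acvr2b (-0.021 to 0.052) and Acvr1 (-0.15 to 0.033) changed sign when arrays were left out, and Acvr1 also with median centring (0.010). When each array was left out, the within-tumour change was 2.13 to 2.47 for Inha minus Inhba and 0.54 to 1.24 for Inha minus Inhbb. It was -1.93 to -0.89 for Inhba minus Inhbb, 1.59 to 1.97 for Inhba minus Fst and 0.29 to 0.75 for Inhba minus Fstl3. Averaging probe sets could not move these changes, since each gene had 1 probe set. Without detection calls, the dim values of Fst and Acvr2b limit what can be said of them.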

Other observations

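Some relatives of the 10 genes gave low signal in every tumour. Inhbe, the beta E subunit gene, and Acvr1c, which encodes the type I receptor ALK7, were under the 25th percentile of genes on every array, and their log2 changes were -0.081 and -0.16 (limma adjusted p = 0.730 and 0.575). Inhbc, the beta C subunit gene, was under it on 2 arrays and differed by -0.048. These genes, like those that follow, were chosen after their values were seen.

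Without placebo replicate 3, several pathway genes passed that had not passed on 6 arrays. Tgfb1 rose by 0.42 on the log2 scale and Tgfb3 fell by 1.41 (adjusted p = 0.0315 and 0.00139). Tgfb3 measured 5.65, 5.77 and 5.91 in the E2 tumours, against 7.433, 6.937 and 5.596 in the placebo tumours, the last being replicate 3. Dab2, an endocytic adaptor that links TGF-beta receptors to SMAD proteins, fell by 1.42 (adjusted p = 0.00765). It measured 7.06, 6.54 and 7.39 in the E2 tumours, against 8.23, 8.61 and 6.99 in the placebo tumours. Skil rose by 0.37 and its relative Ski fell by 0.65 (adjusted p = 0.0307 and 0.0245), and both encode SMAD corepressors. Macrophage markers were also lower without that array, with 5 of 6 falling, against 5.21% of all genes. The part of these markers in the values above was not tested.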
